A study of Mus musculus with 7 samples.

Results

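The mitochondrial solute carriers were taken as every row of the count table whose symbol is Slc25a followed by a number, together with Ucp1, Ucp2 and Ucp3. This gave 50 genes of 24421 symbols in the table. The choice used names only, so it holds members that sit elsewhere in the cell: Slc25a17 is a peroxisomal carrier and Slc25a46 a protein of the outer mitochondrial membrane. A low-count filter left 33 of the 50 for testing, and Slc25a48, Slc25a54 and Ucp3 had no count in any library.

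The inner mitochondrial membrane is closed to most metabolites, and proteins of this family move them across it by alternating between a state open to the matrix and one open to the intermembrane space. They exchange ADP for ATP, bring in phosphate, carry citrate out for lipid synthesis, shuttle reducing equivalents as malate and aspartate, and deliver cofactors and iron. The uncoupling proteins of the same family include Ucp1, which lets protons back across the membrane and makes heat in brown fat.

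Messenger RNA had been measured in sorted stromal cells of BALB/c mice, with libraries that read the 3' ends of polyadenylated transcripts. The pCAF group (3 libraries) held cancer-associated fibroblasts of tumors grown from 100000 4T1-luc cells, a luciferase-carrying mammary carcinoma line, which had been injected under anaesthesia into the lower left mammary fat pad of females. Tumors were taken at 1 cm. These cells lacked Ter119, CD45 and EpCAM and carried PDPN (podoplanin), except that the selection field of pCAF replicate 3 reads PDPN-. The NMF group (4 libraries) held Ter119- CD45- EpCAM- cells of the normal mammary fat pad of untreated mice, with no selection on PDPN. Ages in the labels are 8 weeks for pCAF and 12 weeks for NMF, whereas the design text calls the mice age matched, and tumor and fat pad were digested with different collagenases. The 4T1 tumor is 1 transplanted line, and the labels call the replicates biological without naming animals, so the p-values speak of the spread among these 7 libraries.

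Total counts ran from 1885039 to 4990070 per library. In each group 1 library stood apart, replicate 1 in pCAF and replicate 4 in NMF: their counts differed from those of the other libraries of the group with a chi-square per degree of freedom of 38.8 to 46.8, against 3.49 to 11.1 among the rest. Replicate 1 of pCAF detected 11090 genes, against 13409 and 13555 in replicates 2 and 3. Replicate 4 of NMF, with the largest total, detected 13222, against 14110 to 14353 in the other NMF libraries. A count was seen for 32 carriers in pCAF replicate 1, and for 42 and 41 in pCAF replicates 2 and 3. The part of this in the low values of pCAF replicate 1 was not tested. The fibroblast markers summed to 70062 to 81859 CPM (the usual depth-scaled count unit, with library sizes adjusted by TMM factors) in pCAF and to 22869 to 42370 CPM in NMF, most of it from the collagens. Of these 8 markers Col1a1, Col1a2, Col3a1 and Lum rose, while Dcn (4653 ± 1219 against 8364 ± 2544 CPM, adjusted p = 0.0736), Pdgfra (adjusted p = 0.916), Pdgfrb (0.05002) and Thy1 (0.0762) did not pass. Summed adipocyte markers (10 genes) ran from 12.8 to 90.9 CPM in pCAF and from 2101 to 15898 CPM in NMF, with Cidec, Lep, Pck1 and Plin1 at 0 in every pCAF library. Summed blood endothelial markers (12 genes) ran from 51.6 to 68.7 CPM in pCAF and from 2022 to 3246 CPM in NMF. In such bulk libraries fewer cells of a type and less RNA per cell cannot be told apart, and the part of these cells in the results on carriers was not tested.

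The 3 most abundant carriers had higher CPM in every pCAF library than in any NMF library, and for 2 of them the rise passed the test. Slc25a4 and Slc25a5, which exchange ADP and ATP, and Slc25a37, which imports iron, rose. Slc25a23, Slc25a27, Slc25a35, Slc25a42 and Slc25a45 fell. These were 3 of 33 tested carriers higher (9.09%, against 14.3% of the 10535 tested genes) and 5 lower (15.2%, against 14.2%) at an adjusted p under 0.05 in edgeR's quasi-likelihood test. In either direction 24.2% of tested carriers passed, against 28.4% of all tested genes, so the share of changed carriers was near that of the transcriptome. The CPM ranges of the groups were apart in 11 of the 33 carriers (33.3%), against 40.4% of all tested genes. With library totals in place of TMM factors 37.1% of all called genes were higher, against 50.2%, and 1 carrier was higher and 6 lower. The median log2 fold change was -0.09 over the tested carriers and -0.02 over all tested genes. Without both libraries that stood apart, 8 carriers were higher and 9 lower, among 52.7% of all genes called.

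**Figure D1:**
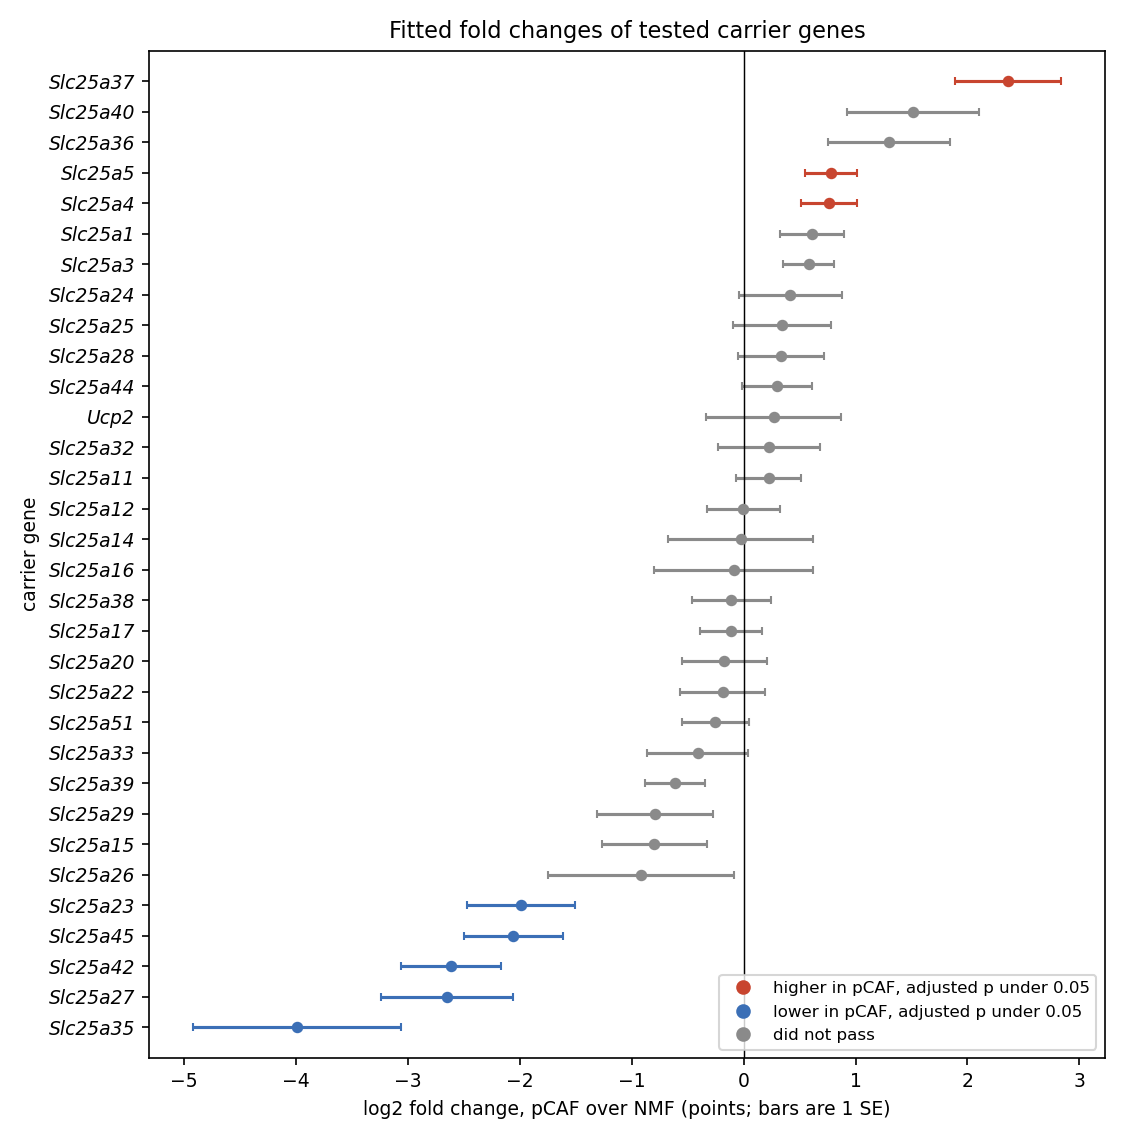
Log2 fold change (pCAF over NMF) fitted by edgeR for 32 of the 33 tested carrier genes, with bars of 1 SE; red points were higher and blue points lower at an adjusted p under 0.05. The 5 genes that fell lie between -1.99 and -3.99, apart from all others, while the rises of Slc25a4 and Slc25a5 are below 1 with narrow bars.

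Promoter sequence is shown for Slc25a5, which rose, and for Slc25a42 and Slc25a45, which fell, because genes on both sides of the comparison carried the same kind of motif. The bases are those before the RefSeq start (GRCm38.p6), given 5′ to 3′ on the gene's strand and only as far as they lie outside the gene's span in GENCODE M21. Capitals mark the GC box GGGCGG or its reverse complement CCGCCC, a site type bound by Sp factors. The positions are chrX:36795347-36795596 (plus strand) for Slc25a5, chr8:70212306-70212531 (minus strand) for Slc25a42 and chr19:5877572-5877807 (plus strand) for Slc25a45.
Slc25a5: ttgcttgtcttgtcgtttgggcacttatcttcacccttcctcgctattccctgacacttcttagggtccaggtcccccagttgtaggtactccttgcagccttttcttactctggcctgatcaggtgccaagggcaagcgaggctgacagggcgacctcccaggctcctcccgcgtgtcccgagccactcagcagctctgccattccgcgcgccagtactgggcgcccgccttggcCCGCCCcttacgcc
Slc25a42: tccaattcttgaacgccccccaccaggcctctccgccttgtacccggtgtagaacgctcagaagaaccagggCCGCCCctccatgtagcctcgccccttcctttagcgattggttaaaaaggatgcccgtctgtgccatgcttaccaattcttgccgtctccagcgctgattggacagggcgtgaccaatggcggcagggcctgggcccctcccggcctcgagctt
Slc25a45: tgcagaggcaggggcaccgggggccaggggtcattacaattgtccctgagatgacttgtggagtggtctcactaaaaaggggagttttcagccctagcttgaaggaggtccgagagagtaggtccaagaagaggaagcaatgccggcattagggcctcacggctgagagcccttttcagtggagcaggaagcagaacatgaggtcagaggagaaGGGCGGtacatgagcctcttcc

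Each of the 3 held at least 1 GC box, as did the Slc25a23 promoter, while that of Slc25a4 held none. Promoters were matched by symbol for 39 of the 50 carriers, with 49 starts. Over equal windows before each start, searched on both strands, a GC box occurred in 67.3% of carrier promoters and 32.7% of 32851 promoters of all genes. The ETS core CCGGAAG, bound by factors such as GABPA, occurred in 12.2% against 6.91%, and the Slc25a4 promoter held it. The palindrome TGCGCA of NRF1 occurred in 10.2% against 6.43%, and the E-box CACGTG in 16.3% against 6.02%. These are matches of letters, no overlap between motifs was removed, and starts of 1 gene share sequence. The entries for Slc25a27, Slc25a35 and Slc25a37 were missing.

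The ADP/ATP carriers export the ATP made by oxidative phosphorylation in exchange for ADP. Slc25a4 (mm10 chromosome 8, 46206797 to 46211284, minus strand) stood at 1218, 1090.0 and 992 CPM in pCAF replicates 1 to 3. In NMF replicates 1 to 4 it stood at 542, 559, 711 and 776 CPM. The groups did not overlap, all pCAF values being the higher ones, and the fitted rise was 1.70-fold (means 1099.8 ± 113 and 647 ± 115 CPM, SD, n = 3 and 4; adjusted p = 0.0439, log2 fold change 0.76 with SE 0.25). Slc25a5 (chromosome X, 36795651 to 36798807, plus strand), the form prominent in dividing cells, stood at 275, 372 and 320.4 CPM in pCAF. Its NMF values were 176, 191, 214 and 169 CPM, again with no overlap. Slc25a5 rose 1.72-fold (means 322 ± 48.4 and 188 ± 19.9 CPM; adjusted p = 0.0298, log2 fold change 0.78 with SE 0.23). The 3' end of Slc25a5 has a near-identical annotated copy, Slc25a5-ps, so its share of reads is uncertain.

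Both calls were close to the threshold. For Slc25a4 the adjusted p was 0.108 without pCAF replicate 2, 0.0775 without pCAF replicate 3, and 0.136, 0.127 and 0.0875 without NMF replicates 1, 2 and 3. For Slc25a5 these values were 0.123, 0.0796, 0.0883, 0.0764 and 0.0529. With library totals as the scaling the fold changes were 0.52 and 0.55 on the log2 scale (adjusted p = 0.132 and 0.111), when the median of all genes stood at -0.26. Without both libraries that stood apart, both genes passed (adjusted p = 0.00129 and 6.01e-04). That fit called 52.7% of all genes, against 28.4% in the main fit.

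Slc25a4 gave 4.43, 2.93 and 3.095 counts per Slc25a5 count in pCAF, and 3.09, 2.93, 3.32 and 4.59 in NMF. This ratio overlapped between the groups, and its highest value in each group was that of the library that stood apart. The third member of this subfamily, the testis form Slc25a31, held 1 count in pCAF and 3 in NMF and was not tested.

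Slc25a3, which imports the phosphate needed for ATP synthesis, stood at 1038, 936 and 1101 CPM in pCAF and at 628, 708, 721 and 683 CPM in NMF. The groups did not overlap, but the difference did not pass (log2 fold change 0.58, SE 0.23, adjusted p = 0.0829). It passed without pCAF replicate 1 (adjusted p = 0.0482), without both libraries that stood apart (0.00935) and with DESeq2's test (0.0110). Slc25a4, Slc25a3 and Slc25a5 together made up 64.9% to 71.1% of all carrier counts in pCAF libraries and 53.6% to 59.2% in NMF libraries.

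Carriers that set the size of the adenine nucleotide pool differed among themselves. Slc25a23 (chromosome 17, 57043711 to 57059863, minus strand), a calcium-regulated carrier of ATP-Mg and phosphate, stood at 25.0, 9.58 and 7.21 CPM in pCAF. In NMF it stood at 73.8, 41.4, 36.3 and 69.3 CPM. Every pCAF value was below every NMF value, and Slc25a23 fell 3.96-fold (log2 fold change -1.99, SE 0.48, adjusted p = 0.0121). Without pCAF replicate 1 the fall was 6.59-fold. An antisense gene, Gm17168, overlaps the 3' end of Slc25a23, and strand handling is not given in the sources used here, so reads of these genes cannot be told apart.

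The related Slc25a24 stood at 18.3, 75.5 and 97.6 CPM in pCAF and at 43.3, 47.3, 60.2 and 40.5 CPM in NMF. The groups overlapped through pCAF replicate 1 alone, and the difference did not pass (log2 fold change 0.42, SE 0.46, adjusted p = 0.541). Without pCAF replicate 1 Slc25a24 was 1.81-fold higher in pCAF (adjusted p = 0.0197). Slc25a25, the third of these calcium-regulated carriers, stood at 40.8 ± 8.93 against 32.4 ± 14.3 CPM (adjusted p = 0.601).

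Slc25a42 (chromosome 8, 70184340 to 70212305, minus strand), which brings coenzyme A into the matrix, had the lowest adjusted p of the family. It stood at 3.33, 2.82 and 2.77 CPM in pCAF and at 16.2, 24.1, 19.4 and 14.6 CPM in NMF. All pCAF libraries lay within a narrow range far below the NMF libraries, a fall of 6.14-fold (log2 fold change -2.62, SE 0.45, adjusted p = 0.00189). These values rest on 5 to 6 counts per pCAF library and 42 to 78 per NMF library. Slc25a16, also linked to coenzyme A, was at 0.555, 17.5 and 12.7 CPM in pCAF and at 10.4 to 11.6 CPM in NMF (adjusted p = 0.941). Of the 8 tested adenine nucleotide, phosphate and coenzyme A carriers, 2 rose, 2 fell and 4 did not pass. Over all tested genes 14.3% rose and 14.2% fell, and 8 genes are too few to compare with these shares.

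**Figure D2:**
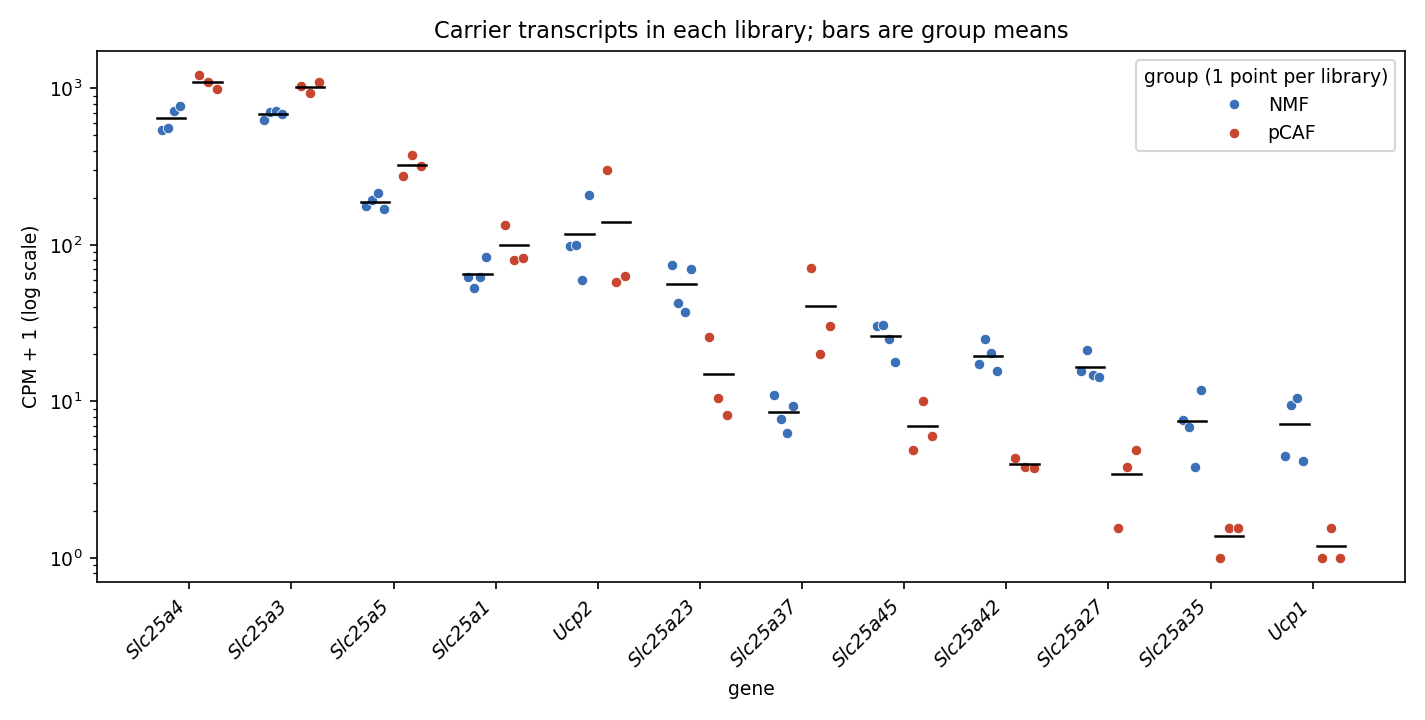
CPM + 1 on a log scale for 12 carriers, 1 point per library (blue NMF, red pCAF), with a bar at each group mean. Slc25a4, Slc25a3 and Slc25a5 are the most abundant and lie higher in pCAF, Slc25a23, Slc25a45, Slc25a42, Slc25a27, Slc25a35 and Ucp1 lie lower without overlap, and in Ucp2 the groups overlap.

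As a share of all carrier counts, the adenine nucleotide, phosphate and coenzyme A carriers took 72.7% ± 4.66 in pCAF (SD, n = 3) and 62.9% ± 1.84 in NMF (n = 4). The lowest pCAF value was 67.4% in replicate 1 (95% Wilson interval 66.3% to 68.4%) and the highest NMF value 65.1% in replicate 3 (64.03% to 66.1%), so the groups did not overlap. The amino acid and carnitine carriers took 4.98% ± 0.400 in pCAF and 7.16% ± 0.666 in NMF, and the orphan members 0.282% ± 0.0684 and 1.41% ± 0.344. The cofactor, pyrimidine nucleotide and iron carriers took 9.53% ± 0.795 and 13.7% ± 1.85. A share also moves with the counts of the other members. In CPM the amino acid and carnitine carriers summed to 177 ± 12.4 in pCAF and 191 ± 9.88 in NMF. These shares do not depend on the scaling of libraries and were not tested, and intervals cover counting error only. Summed over the family, carriers stood at 3561 ± 295 CPM in pCAF and 2678 ± 169 CPM in NMF.

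**Figure D3:**
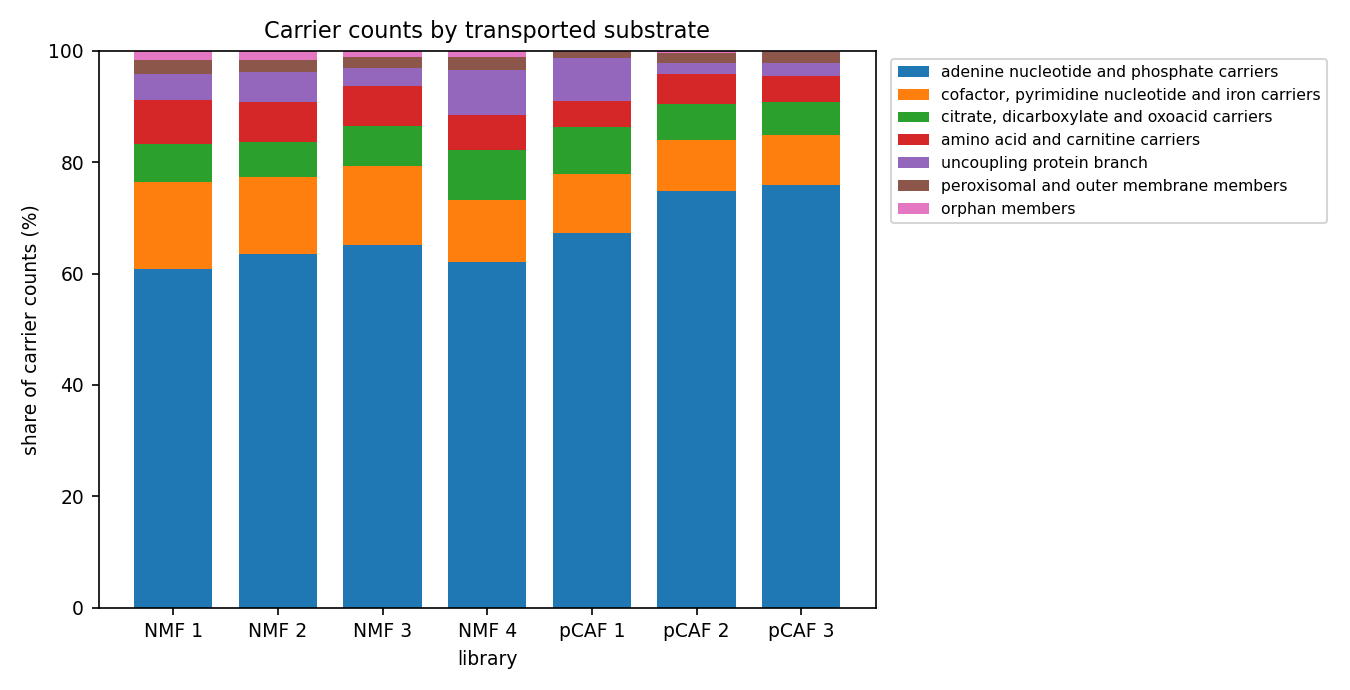
Share of all carrier counts (%, stacked to 100) by group of transported substrate, 1 bar per library. The adenine nucleotide and phosphate carriers (blue) fill 60.9% to 65.1% of NMF bars and 67.4% to 75.9% of pCAF bars, and the uncoupling branch (purple) is widest in pCAF 1 and NMF 4, at 7.71% and 8.11%.

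Carriers of citrate and other organic acids did not pass. Slc25a1 exports citrate, from which the cytosol makes acetyl coenzyme A for lipids. It stood at 134, 79.4 and 82.03 CPM in pCAF and at 61.03, 51.9, 61.3 and 82.7 CPM in NMF. The groups overlapped only because NMF replicate 4 exceeded pCAF replicates 2 and 3 (log2 fold change 0.61, SE 0.29, adjusted p = 0.137). Without both libraries that stood apart it passed (1.38-fold, adjusted p = 0.0415). Slc25a11, the oxoglutarate/malate carrier, stood at 199, 136 and 116 CPM in pCAF and at 105, 103, 135 and 171 CPM in NMF. These ranges overlapped (adjusted p = 0.607), and the 3' end overlaps an exon of Rnf167 on the other strand. The dicarboxylate carrier Slc25a10 held 3 counts over pCAF and 34 over NMF and was not tested. The NMF level was 4.64 times that of pCAF (95% interval of counting error 1.46 to 23.6). Leaving out pCAF replicate 3 gave 9.25 (1.55 to 376), and leaving out pCAF replicate 1 gave 3.09 (0.970 to 15.7). With edgeR, 0 of the 2 tested members of this group passed, also at an unadjusted p under 0.05 and with DESeq2. Of all tested genes 28.4% passed in edgeR.

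None of 7 tested amino acid and carnitine carriers passed in edgeR, at an unadjusted p under 0.05 or in DESeq2. In edgeR 28.4% of all tested genes passed. Slc25a12, the calcium-stimulated aspartate/glutamate carrier of the malate-aspartate shuttle, averaged 47.7 ± 17.4 CPM in pCAF and 47.7 ± 12.1 CPM in NMF (adjusted p = 0.992, log2 fold change -0.01 with SE 0.33). Its relative Slc25a13 held 11 counts over pCAF and 13 over NMF and was not tested. Slc25a20, which exchanges acylcarnitine for carnitine in fatty acid oxidation, was at 32.4 ± 9.81 against 36.6 ± 12.3 CPM (adjusted p = 0.775). The glutamate carrier Slc25a22 was at 30.5 ± 10.6 against 34.9 ± 10.9 CPM (adjusted p = 0.754), and Slc25a38, a glycine carrier that serves heme synthesis, at 29.3 ± 12.6 against 31.6 ± 6.79 CPM (adjusted p = 0.852). Slc25a15, Slc25a29 and Slc25a44 completed this group, with adjusted p from 0.235 to 0.519. The ornithine carrier Slc25a15 was lower in pCAF without both libraries that stood apart (2.32-fold, adjusted p = 0.0255).

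Slc25a37, or mitoferrin 1, imports iron for heme and iron-sulfur clusters and was the cofactor and metal carrier that rose. It lies on chromosome 14 from 69241848 to 69285112, minus strand. It stood at 69.9, 19.2 and 29.4 CPM in pCAF and at 10.04, 6.76, 5.28 and 8.40 CPM in NMF. The groups did not overlap and pCAF replicate 1 was the highest. The fitted rise was 5.14-fold (log2 fold change 2.36, SE 0.48, adjusted p = 0.00479), and 3.15-fold without pCAF replicate 1 (adjusted p = 0.00617). Its 3' end matches 5 other annotated genes, of which Gm27223 and Gm31748 overlap it on the other strand, so its share of reads is uncertain. Slc25a37 is known from red cell precursors, and of 7 erythroid markers 6, with the 4 globin genes among them, were at 0 in every library. Alas2, which makes the first heme precursor in red cells, held 6, 2 and 8 counts in pCAF and 7, 14, 11 and 2 in NMF. Its levels overlapped, and the part of such cells in the rise of Slc25a37 was not tested.

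Slc25a28, mitoferrin 2, is the form of most other tissues. It stood at 151, 44.5 and 67.6 CPM in pCAF and at 76.9, 56.2, 76.4 and 68.4 CPM in NMF. These ranges overlapped, with pCAF replicate 1 again the highest (log2 fold change 0.34, SE 0.38, adjusted p = 0.554). Slc25a39 and Slc25a40 import glutathione. Slc25a39 stood at 99.8, 148 and 113 CPM in pCAF and at 187, 204, 215 and 133 CPM in NMF. The groups overlapped through pCAF replicate 2 and NMF replicate 4 (log2 fold change -0.62, adjusted p = 0.116). Slc25a40 averaged 11.9 ± 6.47 against 4.03 ± 2.09 CPM (log2 fold change 1.52, adjusted p = 0.0794). Neither passed, and the fitted changes had opposite signs. Without both libraries that stood apart Slc25a39 was 1.55-fold lower (adjusted p = 0.00701) and Slc25a40 4.49-fold higher (adjusted p = 0.00102). Slc25a39 also passed as lower without NMF replicate 4 (adjusted p = 0.0477) and with library totals (0.0466), and Slc25a40 as higher without pCAF replicate 1 (0.0267) or NMF replicate 4 (0.0428). The 3' end of Slc25a40 matches Gm5066, so its share of reads is uncertain.

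Slc25a51, which brings NAD into the matrix, was at 33.4 ± 4.17 against 39.7 ± 9.95 CPM (adjusted p = 0.573), although part of its 3' end matches a transcript of Itgad. The pyrimidine nucleotide carrier Slc25a36 was at 7.80 ± 1.67 against 3.07 ± 1.23 CPM, with no overlap (adjusted p = 0.101, and 0.0478 without NMF replicate 4). Slc25a26, Slc25a32 and Slc25a33 had adjusted p from 0.451 to 0.755. The peroxisomal carrier Slc25a17 was at 54.3 ± 13.9 against 58.7 ± 7.05 CPM (adjusted p = 0.798), and the outer membrane member Slc25a46 held 5 counts over each group and was not tested.

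Within the uncoupling branch the members fell into different patterns. Slc25a27, also called Ucp4 and known from nervous tissue, fell (chromosome 17, 43641891 to 43667214, minus strand). It stood at 0.555, 2.82 and 3.88 CPM in pCAF and at 14.7, 20.3, 13.7 and 13.3 CPM in NMF. Every NMF library was above every pCAF library, a 6.29-fold difference (log2 fold change -2.65, SE 0.59, adjusted p = 0.00797) that rests on 1, 5 and 7 counts in pCAF.

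Ucp1 was not tested because of its low counts. It held 0, 1 and 0 counts in pCAF and 9, 20, 27 and 17 in NMF. The NMF level over all libraries was 29.9 times that of pCAF (95% interval of counting error 5.20 to 1196). This ratio was 19.9 when pCAF replicate 1 was left out (3.46 to 795) and also when pCAF replicate 3 was (3.46 to 795). Leaving out pCAF replicate 2 removed the last pCAF count, and the bound was then at least 6.68-fold lower, set by 3 counts over the group. Ucp1 entered 6 of the 15 alternative fits and passed as lower in each (adjusted p from 0.00113 to 0.0445). A count filter could admit it only through NMF, where it was high, so these fits are no separate support for a fall. Ucp1 is the defining gene of brown fat, and of 11 other brown and beige fat genes 4 could be tested, of which 1 rose, 1 fell and 2 (Cox7a1 and Ebf2) did not pass. Adrb3, Cidea and Elovl3 were at 0 in every pCAF library and held 13, 17 and 2 counts over NMF. Cpt1b was at 0 in both groups, while Otop1, Ppara and Prdm16 held 8, 5 and 1 counts over pCAF and 30, 19 and 22 over NMF. Cox8b, a respiratory subunit of brown fat, was 12.5-fold lower (adjusted p = 0.00439), while Dio2, a thyroid hormone deiodinase, was 8.89-fold higher (94.8, 21.97 and 17.2 CPM in pCAF, 4.75 ± 3.27 CPM in NMF, adjusted p = 0.00697). The Dio2 rise was 3.87-fold without pCAF replicate 1 (adjusted p = 0.0166) and 14.2-fold without NMF replicate 4 (0.00802).

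Ucp2, the widely expressed member, varied more within the groups than between them. It stood at 299, 56.9 and 62.6 CPM in pCAF and at 96.9, 98.8, 58.8 and 208 CPM in NMF. Its highest value in each group was that of the library that stood apart. The log2 fold change was 0.27 (SE 0.60, adjusted p = 0.783), -0.96 without pCAF replicate 1 (adjusted p = 0.113) and -0.51 without both of those libraries (adjusted p = 0.0682). The 3' end of Ucp2 overlaps Dnajb13 on the other strand. Slc25a14 was at 6.32 ± 4.64 against 6.42 ± 1.22 CPM (adjusted p = 0.981), and Slc25a30 held 4 counts over pCAF and 13 over NMF.

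**Figure D4:**
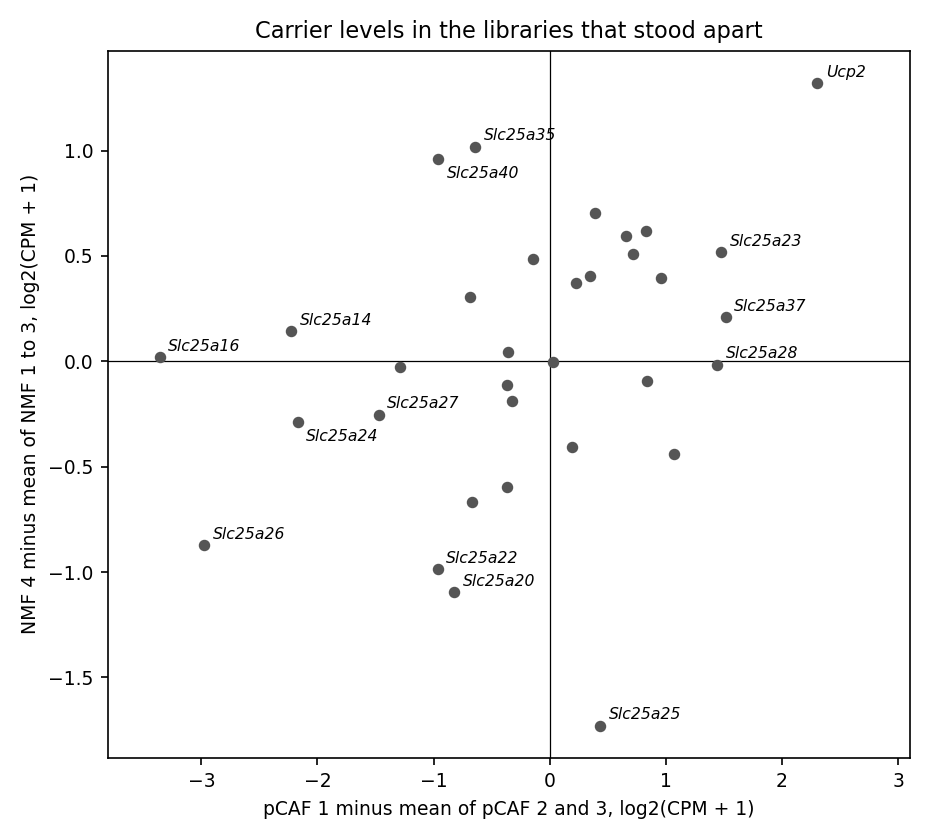
Each point is 1 of the 33 tested carriers, placed by how far pCAF replicate 1 lay from pCAF replicates 2 and 3 (horizontal) and how far NMF replicate 4 lay from NMF replicates 1 to 3 (vertical), both in log2(CPM + 1). Ucp2 lies far to the upper right at 2.31 and 1.32, and Slc25a26, Slc25a20 and Slc25a22 lie to the lower left.

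The distances of the libraries that stood apart had the same sign in 20 of 33 tested carriers, 10 of them above and 10 below their groups, and in 5815 of 10535 tested genes. Over the 33 carriers Pearson's r between these distances was 0.335, and over all tested genes 0.118. These are descriptions across genes that share the libraries.

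Among 8 orphan members, grouped as carriers without a settled substrate, 2 could be tested, and these were among the 14.2% of all tested genes that fell. The number is too small to describe the group. Slc25a45 (chromosome 19, 5877808 to 5885878, plus strand) stood at 3.88, 9.01 and 4.99 CPM in pCAF and at 29.4, 30.0, 23.9 and 17.0 CPM in NMF. The groups did not overlap, and Slc25a45 fell 4.17-fold (log2 fold change -2.06, SE 0.44, adjusted p = 0.00644). Slc25a35 (chromosome 11, 68968131 to 68974365, plus strand) held 0, 1 and 1 counts in pCAF and 17, 14, 8 and 58 in NMF (adjusted p = 0.00992). The count filter kept both Slc25a45, with 7, 16 and 9 counts in pCAF, and Slc25a35 through NMF alone. The NMF level of Slc25a35 was 19.9 times that of pCAF (95% interval of counting error 5.35 to 166). Leaving out pCAF replicate 1 gave 13.2 (3.56 to 110.5), and leaving out NMF replicate 4 gave 13.5 (3.48 to 115). An exon of Rangrf on the other strand overlaps the 3' end of Slc25a35. Slc25a34 held no count in pCAF and 15 in NMF, at least 2.05-fold lower in pCAF when 3 counts over the group set the bound. This bound was 3.45 when NMF replicate 4 was left out, 1.17 when NMF replicate 2 was, and 1.36 when pCAF replicate 1 or 3 was. Slc25a47 held 17 counts over pCAF and 47 over NMF. The orphan members Slc25a43 and Slc25a53 held at most 7 counts over either group. So did Slc25a2, Slc25a18, Slc25a21 and Slc25a41, which belong to the groups with known substrates.

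The 5 carriers that fell did so beside the adipocyte and blood endothelial markers, of which all 8 and all 12 tested genes fell (median log2 fold change -7.47 and -6.98). Some markers of other cells fell as well, among them 3 of 8 tested pericyte and smooth muscle genes (Rgs5, Notch3 and Mcam, with Des higher). For epithelium, leukocytes and skeletal muscle 3 of 7 each fell. Of 3 tested lymphatic endothelial genes 1 rose and 1 fell. Over all tested genes 14.2% fell. In NMF replicates 1 to 4, summed adipocyte markers stood at 13755, 15898, 7915 and 2101 CPM. In the same order Slc25a42 was at 16.2, 24.1, 19.4 and 14.6 CPM and Slc25a45 at 29.4, 30.0, 23.9 and 17.0 CPM. Slc25a27 was at 14.7, 20.3, 13.7 and 13.3 CPM, Slc25a23 at 73.8, 41.4, 36.3 and 69.3 CPM, and Slc25a35 at 6.57, 5.91, 2.82 and 10.8 CPM. Summed skeletal muscle markers stood at 226 CPM in NMF replicate 4 and at 62.1 to 102 CPM in the other NMF libraries. The part of these cells in the falls was not tested.

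Newly made carriers cross the outer membrane with help of the receptor Tomm70a and enter the inner membrane through the TIM22 route. Of 11 tested genes of this route, 2 rose and 1 fell (27.3%, near the 28.4% of all tested genes), with a median log2 fold change of 0.33. Tomm70a was 8.70-fold higher in pCAF (34.8 ± 17.1 against 3.98 ± 1.73 CPM, adjusted p = 0.00120). It held 6, 15, 9 and 22 counts in NMF, so the count filter kept it only through pCAF, where it was high. The small intermembrane chaperone Timm10b rose 2.30-fold (345 ± 174 and 151 ± 46.6 CPM in pCAF and NMF, adjusted p = 0.0353), or 1.63-fold without pCAF replicate 1 (adjusted p = 0.0817). The Timm10b call was also lost without NMF replicates 1 to 4 in turn (adjusted p = 0.0998, 0.0527, 0.0674 and 0.0703). Agk, a lipid kinase that is also a TIM22 subunit, was 3.32-fold lower (adjusted p = 0.0444), a call lost when pCAF replicate 1 (0.0503) or 3 (0.129) or NMF replicate 1 (0.100), 2 (0.0880) or 3 (0.117) was left out. Without pCAF replicate 2 the Agk fall was 5.15-fold (adjusted p = 0.0344). Agk held 3, 12 and 6 counts in pCAF, so the count filter kept it only through NMF, where it was high. Timm13 (219.9 ± 122 against 176 ± 28.2 CPM, adjusted p = 0.524) and Timm10 (49.04 ± 6.47 against 30.9 ± 10.8 CPM, adjusted p = 0.142) did not pass, nor did the import channel Tomm40 (98.4 ± 31.05 against 82.1 ± 18.1 CPM, adjusted p = 0.563).

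Among 22 other tested mitochondrial transporters 4 rose and 2 fell (27.3%, near the 28.4% of all tested genes; median log2 fold change 0.01). In the fit without both libraries that stood apart 5 rose and 6 fell (50.0%, near the 52.7% of all genes). All 3 porins of the outer membrane, through which metabolites reach the carriers, rose: Vdac1 2.45-fold (228 ± 50.3 against 93.01 ± 24.6 CPM, adjusted p = 0.00739), Vdac2 2.11-fold (adjusted p = 0.00550) and Vdac3 2.65-fold (adjusted p = 0.0109). The sodium/calcium exchanger Slc8b1 fell 26.8-fold (0.745 ± 0.645 against 21.2 ± 4.58 CPM, adjusted p = 6.53e-04). Its pCAF level rests on very few counts, so the count filter kept it only through NMF, where it was high. The fall ran from 18.2-fold without pCAF replicate 1 to 35.2-fold without pCAF replicate 2. Mpc2, a subunit of the pyruvate carrier, fell 1.70-fold (124 ± 18.6 against 212 ± 37.8 CPM, adjusted p = 0.0450), a call lost when pCAF replicate 2 (0.0843) or 3 (0.116) or NMF replicate 1 (0.0707), 2 (0.105) or 3 (0.1300) was left out. Tspo and Mtch1, the most abundant of those that did not pass, had adjusted p of 0.491 and 0.454.

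Of 24 tested enzymes that make or use carried substrates 3 rose and 2 fell (20.8%, against 28.4% of all tested genes; median log2 fold change 0.37). In the fit without both libraries that stood apart 13 of 25 rose and 4 fell (68.0%, against 52.7% of all genes). Mthfd2, of mitochondrial folate metabolism, rose 9.15-fold (56.1 ± 25.4 against 6.23 ± 4.27 CPM, adjusted p = 0.00235) and Idh3a, a subunit of the citrate cycle's isocitrate dehydrogenase, 2.16-fold (adjusted p = 0.00934). Gclc, the catalytic subunit of glutathione synthesis, fell 3.06-fold (16.2 ± 7.39 against 49.7 ± 16.5 CPM, adjusted p = 0.0169), a call lost without NMF replicate 1 (0.0541). Glutamate dehydrogenase, Glud1, fell 2.00-fold (122.8 ± 47.1 against 245 ± 36.4 CPM, adjusted p = 0.0391), a call lost when pCAF replicate 2 (0.0504) or 3 (0.0679) or NMF replicate 1 (0.103), 2 (0.0713) or 3 (0.0822) was left out. The malate dehydrogenase Mdh2 (302 ± 99.97 against 164 ± 40.0 CPM, adjusted p = 0.0605) and the ornithine aminotransferase Oat (387 ± 246 against 294 ± 30.4 CPM, adjusted p = 0.565) did not pass. Cs, citrate synthase, was the other enzyme that rose (1.64-fold, adjusted p = 0.0432), a call lost when pCAF replicate 2 (0.124) or 3 (0.0582) or NMF replicate 1 (0.103), 2 (0.128) or 3 (0.112) was left out.

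Among the 10 tested regulators of mitochondrial biogenesis 0 passed in edgeR, 2 had an unadjusted p under 0.05, and 2 passed in DESeq2. Of all tested genes 28.4% passed in edgeR and 34.8% in DESeq2. Ppargc1b, a coactivator, was at 1.31 ± 1.42 against 6.82 ± 0.224 CPM (adjusted p = 0.0509), and the nuclear receptor Esrra at 25.6 ± 13.4 against 52.3 ± 6.18 CPM (adjusted p = 0.0695). The DNA-binding factor Gabpa and its partner Gabpb1 had adjusted p of 0.217 and 0.146, and Polg, the mitochondrial DNA polymerase, 0.530. Ppargc1a, the coactivator induced in brown fat by cold, had no count in any library. Without both libraries that stood apart 2 of these regulators were lower and 0 higher (20.0% called, against 52.7% of all genes).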

How the data were processed

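The series holds 7 libraries of 3' end messenger RNA from sorted mouse stromal cells, 3 pCAF and 4 NMF, grouped by title. The authors deposited raw counts per gene symbol, not normalized, for each library. The tools bcl2fastq, HTSeq and STAR 2.4.2a and the build mm10 are named, with no roles, per the submitters' processing notes; annotation, strand handling, multi-mapping reads and molecular identifiers are not given in the sources used here. A 3' library counts ends of transcripts, so CPM was not divided by gene length.

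Counts were tested in R 4.3.3 with edgeR 4.0.16: filterByExpr left 10535 genes, scaled with TMM factors, for a two-sided robust quasi-likelihood test. P-values were adjusted by Benjamini-Hochberg across these genes and called under 0.05. Folds are fitted values, pCAF over NMF. Where a group held 1 to 3 counts, the ratio of summed counts is given with an exact 95% counting interval, and with 0 counts a bound against 3 counts over the group. The fit was tested on simulated data with planted changes, and it missed most of the smallest ones. A gene that did not pass is therefore not shown to be unchanged. The members and gene lists were chosen with earlier results of these data known. Per-library values are given for the carriers that passed, for Slc25a1, Slc25a3, Slc25a4, Slc25a5, Ucp1, Ucp2 and Ucp3 and for the 6 most abundant, up to 3 others per role group by mean CPM are named, and from each pathway list the 4 lowest adjusted p and up to 2 others. Values of 2 genes that enter the counts are not reported here. Every other gene given with values was added after its values were seen. Positions are from GENCODE M21 and promoters from RefSeq GRCm38.p6. The last 300.0 bases of carrier transcripts were compared with all transcripts using blastn 2.17.0 (at least 80 bases at 95% identity), and the last 1000.0 bases were checked for overlaps.

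The 15 alternatives were other scalings, DESeq2 1.42.0, other filters, thinned libraries, a replicate block, each library left out, and pCAF replicate 1 and NMF replicate 4 left out together. Those 2 libraries were picked from these data because they stood apart, and the fit without them called 52.7% of all genes. A gene that passed in that fit alone thus has no separate support from it.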

Additional observations from a re-analysis of the deposited data

Results flagged for a closer look

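Slc25a25, a calcium-regulated carrier of ATP-Mg and phosphate, was at 11.2 CPM in NMF replicate 4 and at 36.6 to 41.8 CPM in the other NMF libraries, and this gap took 0.830 of the range of the group. It was picked out because 1 library lay far from the rest of its group of 4. NMF replicate 4 stood apart over the whole transcriptome as well. This was 1 of 23 named carriers examined in this way, and chance alone picks out about 1 group in 20.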

How the results depend on the processing

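The calls of Slc25a37, Slc25a23, Slc25a27, Slc25a42 and Slc25a45 held in all 15 alternative fits, and that of Slc25a35 in 9 of the 10 that tested it, the exception being the replicate block (adjusted p = 0.0710). Slc25a27, Slc25a35, Slc25a42 and Slc25a45 had few pCAF counts, so the count filter kept them only through NMF, where they were high. Fits that tested these genes are thus no separate support for their falls. The rises of Slc25a4 and Slc25a5 each passed in 7 of 15. The number of carriers higher in pCAF, 3 in the report, was 1 with library totals and 1 without a filter, and 8 without both libraries that stood apart; with each library left out it ranged from 1 to 6. Carriers lower in pCAF, 5 in the report, numbered 9 without both of those libraries. With each library left out that number ranged from 4 to 7. All genes higher in pCAF, 1503 in the report, were 2802 without both libraries, and all genes lower, 1491 in the report, were 2913; with each library left out the lower count ranged from 979 to 2187 and the higher from 1016 to 2021. With library totals 37.1% of changed genes were higher, against 50.2% with TMM factors. In the fit with the replicate block, 1 carrier was higher and 4 lower, with 978 and 1023 among all genes; the block gives NMF replicate 4 a term of its own. After removal of group means, same-numbered libraries correlated at -0.09, 0.08 and -0.01. The libraries that stood apart weigh on these group means, so the values cannot settle whether the numbers pair the samples. The labels do not say that they do. The cause of these differences was not tested. Carriers with under about 10 CPM rest on few counts per library.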
